A study of Mus musculus with 15 samples.

Results

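The genes described here encode enzymes, transporters and assembly factors of the peroxisome, and they were followed through 15 RNA-seq libraries of tubule segments dissected from mouse kidney. The set holds 43 genes, chosen by name, and all 43 matched a row among the 54752 genes of the count table. By role they comprise 11 enzymes of peroxisomal beta-oxidation, 5 acyltransferases and thioesterases, 3 ABC half-transporters, 4 oxidases, catalase, 4 enzymes of alpha-oxidation and branched chains, 2 enzymes of ether lipid synthesis and 13 peroxins. The libraries form 4 groups: proximal tubule of wild-type (WT) mice (n = 4, replicates 1, 2, 3 and 6), proximal tubule of Cldn10a KO mice (n = 3, replicates 4, 5 and 7), distal convoluted tubule of WT mice (n = 4, replicates 1 to 4) and distal convoluted tubule of Cldn10a KO mice (n = 4, replicates 5 to 8). Strain and age were not given in the sources used here, and neither was the way the allele was made. Each pool held 10 proximal or approximately 20 distal tubules of a kidney. The labels do not say that each library came from a different mouse, and the p-values below therefore cover only how much these libraries varied.

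Peroxisomes are small organelles that shorten very long and branched fatty acids, make the first ether bond of plasmalogens, and oxidize D-amino acids and hydroxy acids with oxygen. Many of these reactions release hydrogen peroxide, which catalase breaks down. Peroxins import the enzymes, build the membrane and divide the organelle. In kidney, peroxisomes are best known from the proximal tubule, a segment that lives largely on fatty acids.

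Total counts per library ranged from 28729339 to 51764746. Mitochondrial ribosomal RNA took 57.8 to 71.6% of them, and nuclear protein-coding genes 8.02 to 19.7%. Levels are given as CPM, the counts of a gene per 1000000 counts of its library, with the 15 libraries scaled together. Cldn10, the targeted gene, stood at 11.2, 28.6, 28.7 and 17.5 CPM in WT proximal tubule and had no count in the 3 KO proximal libraries. In distal tubule it was low in either genotype, at 0.0686 to 0.471 CPM in WT and 0 to 0.597 CPM in KO. The row counts all transcripts of Cldn10, so the claudin-10a form was not read separately. The 5 proximal tubule markers (Lrp2, Cubn, Aqp1, Miox and Fbp1) summed to 2344 to 2896 CPM in the proximal libraries and to 6.61 to 13.5 CPM in the distal ones. The 5 distal convoluted markers (Slc12a3, Pvalb, Trpm6, Egf and Calb1) summed to 1893 to 2586 CPM in the distal libraries and to 0.223 to 2.43 CPM in the proximal ones. The distal libraries also held 161 to 404 CPM of 4 thick limb markers and 66.7 to 137 CPM of 5 collecting duct markers, and the podocyte markers were at 0 there. Among the proximal libraries, WT replicate 6 and KO replicate 7 carry library numbers from another series than the other 5. Between segments, leaving out WT replicate 6 gave 25 called genes in place of 26, and leaving out KO replicate 7 gave 27, as with it; the comparison of genotypes without both libraries is given with its results.

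To compare genes with one another, levels were divided by the summed exon length (CPM per kb). Cat, catalase, led the set in WT proximal tubule at 114 CPM per kb, 33.5% of the sum over the 43 genes. Phyh, the first enzyme of alpha-oxidation, followed at 28.2, Hao2, a hydroxy acid oxidase, at 23.4, Scp2, a thiolase and lipid carrier, at 19.9, and Pecr, an enoyl-CoA reductase, at 18.3 CPM per kb. The peroxins lay far lower, from 2.55 CPM per kb for Pex19, a carrier of membrane proteins, to 0.174 for Pex11g. In WT distal tubule the order was different: Phyh led at 26.8 CPM per kb, with Cat at 12, Abcd3, a fatty acid transporter, at 6.71 and Hsd17b4, the bifunctional enzyme of branched and very long chains, at 6.58. Acox2, the oxidase of branched and bile acid side chains, was last there at 0.00463 CPM per kb. Abcd2, a transporter of very long chains, had no count in any proximal library, which at 3 counts allows up to 0.0569 to 0.0836 CPM per library. It had 0 to 13 counts in distal libraries and was not tested in any comparison.

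**Figure D1:**
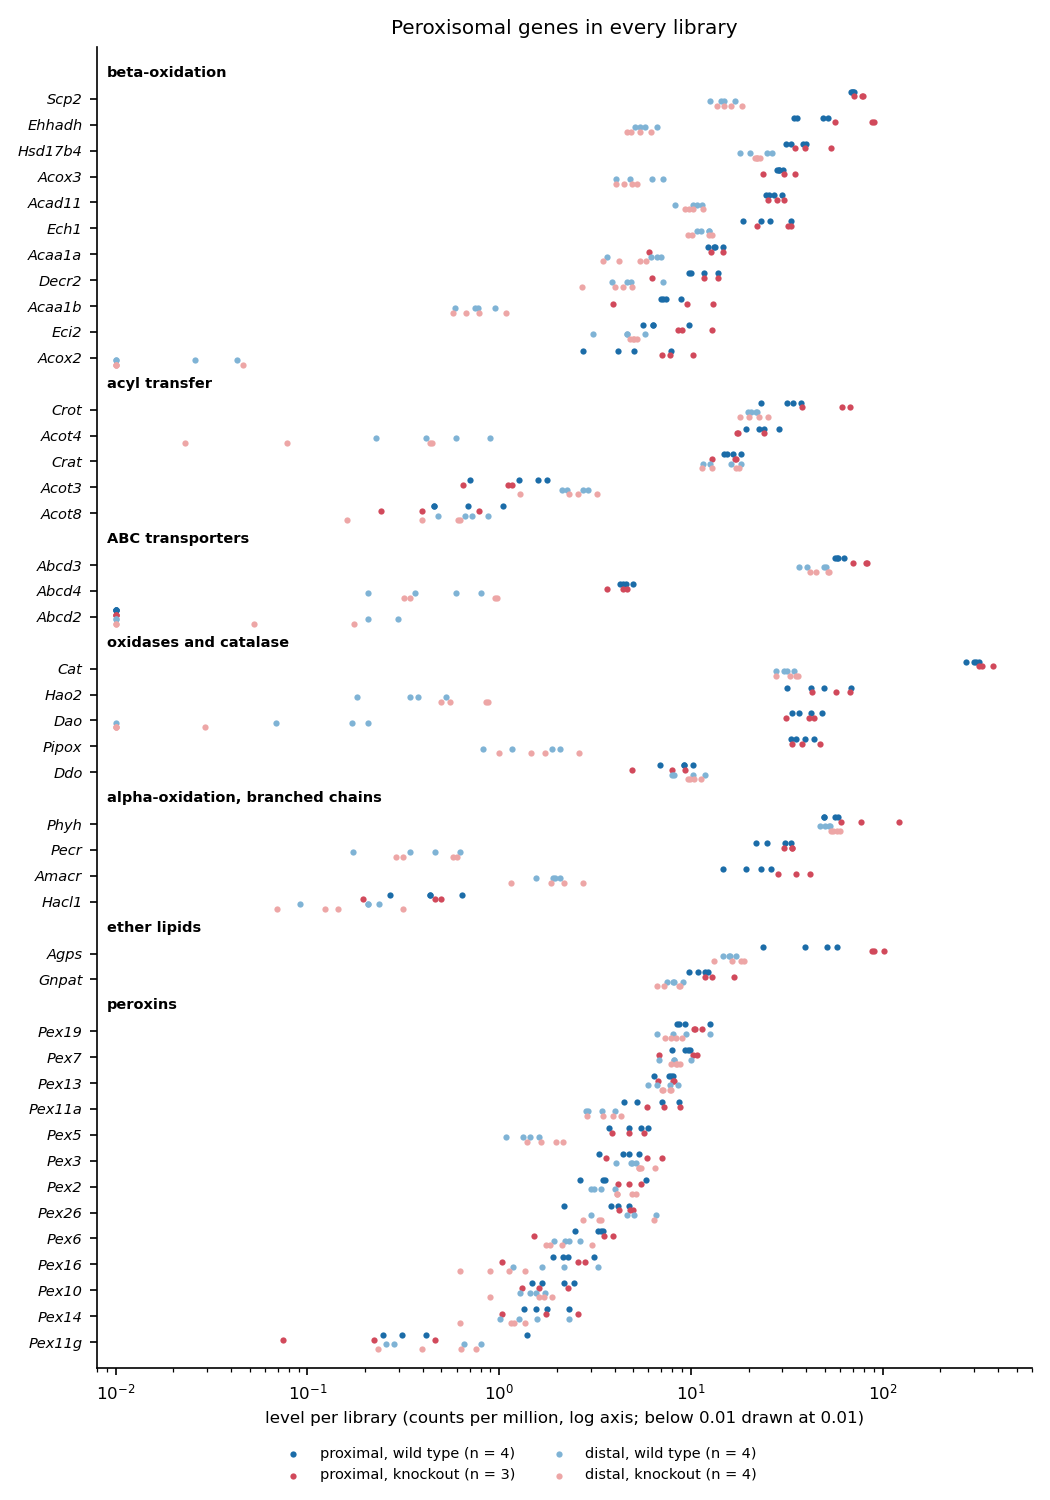
Level of each of the 43 genes in every library, in CPM on a log axis; each point is 1 library and colours give the 4 groups. Most enzymes lie further right in proximal than in distal libraries, while the points of most peroxins overlap between the segments.

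The first comparison asked where along the nephron these genes are read most, in WT mice. In proximal tubule 25 of 42 tested genes were higher (23.6% of all genes tested were called higher) and 1 was lower (25.1% of all genes), by limma's test on log2 CPM with a Benjamini-Hochberg adjusted p under 0.05 over all genes. The median log2 difference, proximal minus distal, was 0.79 over the 42 genes and -0.02 over all 13616 genes tested. The enzymes and transporters account for 23 of the 25 higher genes, out of 29 tested, and the peroxins for 2 of 13. A log2 difference of at least 3 in size was seen for 10 of the 29 enzymes and transporters and for 0 of the 13 peroxins. At 1 or more it was seen for 19 of the 29 and for 1 of the 13. The value of 3 was chosen after the values were seen, and the shares over all genes at these sizes are not given here. The summed level of the 43 genes was 1060 ± 64.7 CPM (SD, n = 4) in proximal and 341 ± 13 CPM (SD, n = 4) in distal tubule. The 5 endothelial markers were also unequal between the segments, at 8.99 to 19.4 CPM summed in WT proximal and 47.9 to 67.9 CPM in WT distal libraries, and their part in the segment differences was not tested. In whole tubules, fewer cells that express a gene and less RNA per cell cannot be told apart.

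**Figure D2:**
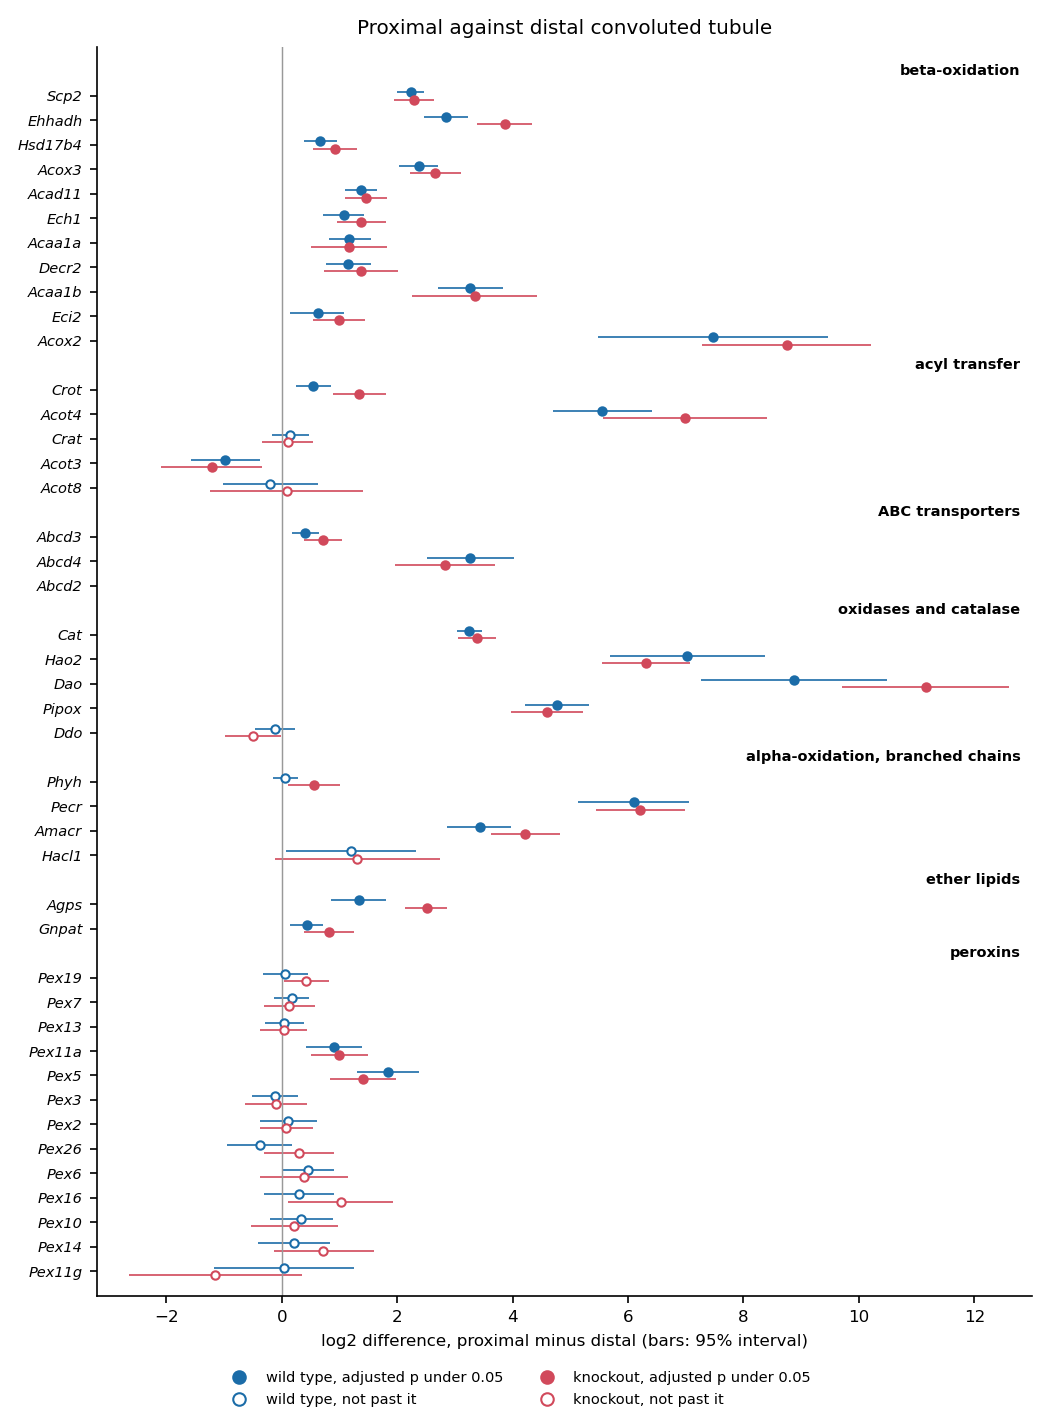
Log2 difference between proximal and distal tubule for 42 genes, in WT (blue) and KO (red), with 95% intervals; filled points passed an adjusted p under 0.05. The enzymes spread up to several log2 units to the right, most peroxins lie near 0, and the fitted values of Acox2 and Dao rest on very few distal counts.

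Of the 4 oxidases 3 were higher in WT proximal tubule, and so was catalase. Dao, which oxidizes D-amino acids, stood at 36.5, 42.2, 48.1 and 33.6 CPM in proximal and at 0.0689, 0.206, 0 and 0.171 CPM in distal libraries (log2 difference 8.87, 95% interval 7.26 to 10.48, adjusted p = 6.87e-08). Dao had 7820 counts over the 4 proximal and 19 over the 4 distal libraries. It reached the counts needed for testing only through its proximal libraries, so its p and interval add little to these counts. Hao2 stood at 49.6, 42.4, 31.6 and 68.4 CPM against 0.379, 0.526, 0.181 and 0.343 CPM (7.03, adjusted p = 1.23e-07). Pipox, which oxidizes pipecolic acid and sarcosine, stood at 33.4, 39.2, 43.9 and 35.1 CPM against 2.07, 0.823, 1.16 and 1.88 CPM (4.77, adjusted p = 5.56e-10). All 4 proximal libraries lay above all 4 distal ones for each of these oxidases. Such a separation was common over all genes. Of the 13616 tested, 3095 had every proximal library above every distal one and 3034 had every one below. Of the 42 tested genes of the set, 25 were apart above and 1 below. Cat was 299 ± 18.4 CPM in proximal and 31.3 ± 2.76 CPM in distal tubule (SD, n = 4 each), a 9.57-fold difference of the means. Its proximal libraries read 300, 316, 273 and 307 CPM and its distal ones 31.8, 34.6, 30.7 and 27.9 CPM, far apart against the spread within each (log2 difference 3.25 ± 0.10 SE, adjusted p = 8.5e-13). Ddo, the oxidase of D-aspartate and the partner of Dao, was not called: it read 6.91 to 10.3 CPM in proximal and 7.93 to 11.8 CPM in distal libraries, with a log2 difference of -0.12 (95% interval -0.47 to 0.23, adjusted p = 0.586).

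All 11 beta-oxidation genes were higher in proximal tubule, with log2 differences of 0.62 to 7.48 and a median of 1.37. Acox2 had 935 counts over the 4 proximal libraries and 3 over the 4 distal ones, a ratio of 255 after scaling (95% exact interval 87 to 1238, counting error only). Like Dao, it reached the counts needed for testing only through its proximal libraries. Ehhadh, which carries out the middle steps of beta-oxidation, read 34.6, 48.7, 35.7 and 51.9 CPM in proximal and 5.44, 5.76, 5.08 and 6.66 CPM in distal libraries (2.85, adjusted p = 2.57e-09). The 2 thiolases Acaa1a and Acaa1b, which release acetyl-CoA, differed by unlike amounts. Acaa1b read 6.98, 7.42, 7.18 and 8.91 CPM against 0.586, 0.778, 0.955 and 0.749 CPM (3.27, adjusted p = 4.55e-08). Acaa1a read 13.3, 13.2, 14.7 and 12.2 CPM against 3.65, 6.22, 6.66 and 6.96 CPM (1.17, adjusted p = 2.78e-05). Both thiolases had every proximal library above every distal one. Acaa1a and Acaa1b are near copies, and how the authors' counting shared reads between them is not given in the sources used here. Acaa1b also shares exon sequence with Dlec1 on the opposite strand (2.74 CPM in proximal and 7.64 CPM in distal WT tubule), and the strand setting is not given either. Acox3 (2.38) and Scp2 (2.24) followed Ehhadh in size. Acad11 (1.37), Decr2 (1.15), Ech1 (1.07) and Hsd17b4 (0.66) differed less. Eci2, an enoyl-CoA isomerase, had the smallest difference (0.62, adjusted p = 0.028); its groups overlapped, and it was no longer called without WT proximal replicate 6 or without WT distal replicate 3 or 4.

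The enzymes of branched chains were split. Pecr read 24.8, 30.8, 33.4 and 21.8 CPM in WT proximal and 0.172, 0.343, 0.465 and 0.621 CPM in WT distal libraries (log2 difference 6.10, adjusted p = 1.45e-08). Amacr, the racemase that makes branched acids fit for beta-oxidation, read 19.4, 23.3, 14.7 and 26 CPM against 1.9, 2.08, 1.55 and 1.95 CPM (3.43, adjusted p = 2.16e-08). Each had all proximal libraries above all distal ones. Phyh read 49.3 to 58.5 CPM in proximal and 46.8 to 53 CPM in distal libraries, overlapping ranges with a log2 difference of 0.06 (95% interval -0.15 to 0.28, adjusted p = 0.634). Hacl1, which cleaves the product of Phyh, was sparsely counted at 0.444 CPM in proximal and 0.185 CPM in distal tubule (1.20, adjusted p = 0.0728), and it shares exons with the much more abundant Btd on the opposite strand.

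Of the acyltransferases and thioesterases, 2 of 5 were higher and 1 was lower in proximal tubule. Acot4, a thioesterase, read 24, 19.4, 28.6 and 22.6 CPM in proximal and 0.414, 0.229, 0.594 and 0.899 CPM in distal libraries (5.55, adjusted p = 1.09e-08). Acot3, its neighbour on chromosome 12 and a thioesterase of longer chains, went the other way, at 1.78, 0.704, 1.59 and 1.27 CPM against 2.27, 2.72, 2.92 and 2.12 CPM (-0.98, adjusted p = 0.00936). For Acot4 every proximal library was above, and for Acot3 every proximal library below, every distal one. The 2 genes belong to a family of near copies, so reads may have been shared or dropped between them. Crot, the carnitine octanoyltransferase that exports shortened acyl groups, was modestly higher (0.55, adjusted p = 0.00424). Crat, the acetyltransferase, was not called (0.15, adjusted p = 0.435), nor was the thioesterase Acot8 (-0.20, adjusted p = 0.709).

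The transporters and the ether lipid enzymes were higher in proximal tubule where they could be tested. Abcd3 read 58.3, 62.8, 56.6 and 57.9 CPM in proximal and 36.5, 40.4, 50.4 and 49.6 CPM in distal libraries (0.41, adjusted p = 0.0068). Abcd4, a relative that serves cobalamin transport, was 4.56 ± 0.29 CPM against 0.491 ± 0.26 CPM (SD, n = 4 each; log2 difference 3.27, adjusted p = 1.11e-06). The proximal libraries lay above the distal ones for both transporters. Agps, which exchanges the acyl group for a fatty alcohol to form the ether bond, was 42.9 ± 15 CPM against 15.9 ± 1.02 CPM (1.33, adjusted p = 0.00011). Gnpat, the acyltransferase of the step before, was 11.2 ± 1.09 CPM against 8.23 ± 0.65 CPM (0.43, adjusted p = 0.0143).

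Of the 13 peroxins, Pex5 and Pex11a were higher in proximal tubule. Pex5, the receptor that brings most enzymes to the peroxisome, read 3.74, 5.99, 5.51 and 4.77 CPM in proximal and 1.45, 1.33, 1.08 and 1.61 CPM in distal libraries (1.84, adjusted p = 1.28e-05). Pex11a, a factor of peroxisome growth and division, was 6.35 ± 1.86 CPM against 3.3 ± 0.555 CPM (0.91, adjusted p = 0.00349). Both had all proximal libraries above all distal ones. Pex7, the receptor for a smaller set of enzymes that includes Phyh and Agps, read 9.92, 9.63, 9.34 and 7.93 CPM against 9.99, 8.17, 8.13 and 6.81 CPM, with overlapping groups (0.17, 95% interval -0.14 to 0.48, adjusted p = 0.359). Pex13, part of the docking site for the receptors, was 7.51 ± 0.769 CPM against 7.25 ± 1.16 CPM (0.04, adjusted p = 0.839). The other docking and export factors (Pex2, Pex6, Pex10, Pex14 and Pex26) and the membrane assembly factors (Pex3, Pex16 and Pex19) were not called either. The 11 peroxins that were not called had log2 differences of -0.38 to 0.46, and the 95% intervals of the single genes reached from -1.17 to 1.25, so for the less abundant ones a difference of that size was not excluded.

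The low distal values were set beside those of proximal markers in the same libraries. In WT distal libraries each of the 5 proximal markers stood at 0.089 to 0.595% of its proximal level. Dao stood at 0.278%, Acox2 at 0.347% and Hao2 at 0.744% of the proximal level. Pecr stood at 1.45%, Acot4 at 2.26%, Pipox at 3.92%, Amacr at 8.95% and Cat at 10.5%. The distal levels of Dao and Acox2 were thus within the range of the proximal markers in the same libraries, and those of Hao2, Pecr, Acot4, Pipox, Amacr and Cat were above it; where the distal reads came from was not tested.

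Promoter windows from RefSeq on GRCm38.p6, which cover 250 bases before and 50 after a start site, were found for 36 of the 43 genes in 44 windows. The first windows below are of a pair of genes with large proximal excess that also hold a direct repeat, the kind of site that dimers of nuclear receptors such as PPAR and HNF4 bind. The motif searched on both strands was NGGNCANAGGNCA, and its match is in capitals; only the bases before the start are printed, 5′ to 3′ on the strand of the gene.
Acox2 (direct repeat, chr14:8259020-8259269, minus strand): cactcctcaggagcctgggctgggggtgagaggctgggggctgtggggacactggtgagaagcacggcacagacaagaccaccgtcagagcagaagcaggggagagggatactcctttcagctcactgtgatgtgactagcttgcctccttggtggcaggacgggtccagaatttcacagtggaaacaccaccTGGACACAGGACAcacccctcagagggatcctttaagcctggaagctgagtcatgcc
Acot4 (direct repeat, chr12:84038129-84038378, plus strand): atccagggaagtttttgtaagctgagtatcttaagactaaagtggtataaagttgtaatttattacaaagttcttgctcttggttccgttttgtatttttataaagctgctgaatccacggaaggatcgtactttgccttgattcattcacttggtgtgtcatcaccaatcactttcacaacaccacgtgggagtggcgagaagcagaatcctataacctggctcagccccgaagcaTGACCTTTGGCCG
The match in Acox2 ends 45 bases before the start and reads along the gene; that in Acot4 ends at the last base before the start and lies on the opposite strand. Among the 44 windows 4 held a match, of the genes Acox2 (2 start sites), Acot4 and Pex11g, and of all 32851 windows 262 did (0.798%). The stricter form, with each repeat spelled AGGTCA and thus a subset of the first, had no match in the 44 windows and 13 in all windows (0.0396%). Pex11g was not called between the segments (0.04, adjusted p = 0.962), so a match was found in genes with and without a proximal excess. A match is a description of the letters and does not show binding.

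Windows also differed in their CG pairs, the dinucleotide that marks many promoters active in most tissues. The next windows show 2 oxidases with large proximal excess beside a peroxin near 0 and Agps, and capitals mark each CG pair.
Hao2 (CG pairs, chr3:98893231-98893480, minus strand): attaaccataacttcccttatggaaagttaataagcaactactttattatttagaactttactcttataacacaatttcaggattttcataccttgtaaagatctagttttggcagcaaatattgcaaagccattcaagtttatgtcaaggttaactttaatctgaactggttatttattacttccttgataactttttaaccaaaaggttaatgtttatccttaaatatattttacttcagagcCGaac
Dao (CG pairs, chr5:114003485-114003734, plus strand): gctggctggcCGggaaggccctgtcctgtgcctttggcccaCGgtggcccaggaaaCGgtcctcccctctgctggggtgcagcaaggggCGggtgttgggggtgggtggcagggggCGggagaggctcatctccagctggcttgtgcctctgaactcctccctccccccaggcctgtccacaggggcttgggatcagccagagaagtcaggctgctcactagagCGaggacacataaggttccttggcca
Pex13 (CG pairs, chr11:23665884-23666133, minus strand): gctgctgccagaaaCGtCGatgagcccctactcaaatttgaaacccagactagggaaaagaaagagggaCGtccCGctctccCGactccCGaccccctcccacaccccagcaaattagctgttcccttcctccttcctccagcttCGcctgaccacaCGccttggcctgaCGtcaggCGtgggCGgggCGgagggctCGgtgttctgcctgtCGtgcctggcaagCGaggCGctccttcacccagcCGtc
Agps (CG pairs, chr2:75831927-75832176, plus strand): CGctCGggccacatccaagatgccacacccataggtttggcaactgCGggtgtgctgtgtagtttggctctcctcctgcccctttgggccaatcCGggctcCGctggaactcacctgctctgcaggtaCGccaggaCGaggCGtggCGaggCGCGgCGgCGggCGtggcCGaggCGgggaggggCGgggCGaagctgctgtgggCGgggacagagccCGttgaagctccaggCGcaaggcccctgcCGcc
Over the whole windows, Hao2 held 2 CG pairs, Dao 6, Pex13 22 and Agps 32. The 8 genes with a window and a log2 difference of at least 3 had a median of 5 pairs (range 2 to 21) and the other 28 a median of 16.5 (range 2 to 45), while all windows had a median of 7. Among the genes outside this division were Pecr, with 21 pairs and a log2 difference of 6.10, and Ddo, with 3 pairs and -0.12. Others were Acot3, with 2 pairs and -0.98, and Pex26, with 7 pairs and -0.38. Agps, with 32 pairs, was itself called higher in proximal tubule (1.33). The value of 3 that divides the genes was chosen after their values were seen. Across the 36 genes the number of pairs and the log2 difference had a Pearson r of -0.39 and a Spearman rho of -0.22; genes share base composition with their neighbours and were not a random draw, so this is a description.

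In KO mice the segment comparison was repeated on other libraries. Of 42 tested genes, 26 were higher in proximal tubule (20.4% of all genes tested) and 1 was lower (20.2% of all genes), with a median log2 difference of 1.09 against -0.04 over all 13834 genes tested. The 26 genes called in WT were all called in KO in the same direction, and Phyh joined them in KO (0.56, adjusted p = 0.0456). Acox2 had 1002 counts over 3 proximal KO libraries and 2 over 4 distal ones (ratio 644, 95% exact interval 178 to 5321), and Dao 4731 and 1 (ratio 6077, interval 1090 to 240069). Both again reached the counts needed for testing only through proximal libraries. Cat was 340 ± 29.6 CPM (SD, n = 3) against 32.9 ± 3.73 CPM (SD, n = 4; log2 difference 3.38, adjusted p = 1.55e-09). Pex5 (1.40, adjusted p = 0.000629) and Pex11a (7.3 ± 1.43 CPM, n = 3, against 3.65 ± 0.615 CPM, n = 4, SD; adjusted p = 0.00297) were again the called peroxins. Calls of Acot3 and Phyh did not survive the loss of proximal KO replicate 4 or 5, or of distal KO replicate 6, 7 or 8, and that of Phyh also not the loss of distal KO replicate 5.

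The next comparison asked how these genes differed between KO and WT mice in proximal tubule. By limma's test 0 of 42 genes passed an adjusted p under 0.05, where 0.166% of all 13229 genes tested did. The median log2 difference, KO minus WT, was 0.05, against -0.01 over all genes. At an unadjusted p under 0.05, 8 of the 42 genes were higher in KO (4.21% of all genes were) and 0 were lower. In 8 of 42 genes every KO library lay above every WT library (4.44% of all genes): Ehhadh, Scp2, Crot, Abcd3, Cat, Phyh, Amacr and Agps. No peroxin was in either set. For Scp2 the highest WT library was at 70.4 and the lowest KO library at 70.6 CPM. For Cat both were at 316 CPM as printed, so these separations were very narrow. The summed level of the 43 genes was 1314 ± 53.2 CPM in KO (SD, n = 3), and 1060 ± 64.7 CPM in WT (SD, n = 4).

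The 6 genes with the smallest p were all higher in KO by value. Agps read 39.1, 51.1, 23.7 and 57.8 CPM in WT and 90, 87.4 and 102 CPM in KO, a 2.17-fold difference of the means (log2 1.18 ± 0.25 SE, 95% interval 0.65 to 1.72, adjusted p = 0.0991). The KO libraries lay close together and above all WT libraries, which ranged widely. Ehhadh read 34.6, 48.7, 35.7 and 51.9 CPM in WT and 90.4, 88 and 56.3 CPM in KO (0.85 ± 0.21 SE, adjusted p = 0.173). KO replicate 7 was close to the highest WT library. Amacr read 19.4, 23.3, 14.7 and 26 CPM in WT and 35.1, 28.3 and 41.6 CPM in KO (0.75 ± 0.21 SE, adjusted p = 0.283). Crot read 31.5, 33.9, 23.2 and 37.4 CPM in WT and 67.2, 61.1 and 37.7 CPM in KO (0.78 ± 0.22 SE, adjusted p = 0.292), and replicate 7 again barely cleared the WT range. Phyh read 49.3, 56.3, 49.4 and 58.5 CPM in WT and 77.1, 122 and 60.2 CPM in KO (0.62 ± 0.21 SE, adjusted p = 0.454), with most of its excess in KO replicate 5, without which the log2 difference was 0.34 (adjusted p = 0.562). Acox2 read 4.17, 5.03, 2.73 and 7.87 CPM in WT and 10.2, 7.8 and 7.09 CPM in KO, and its groups overlapped (0.84 ± 0.29 SE, adjusted p = 0.496). Without WT replicate 3 its log2 difference was 0.56 (adjusted p = 0.898).

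**Figure D3:**
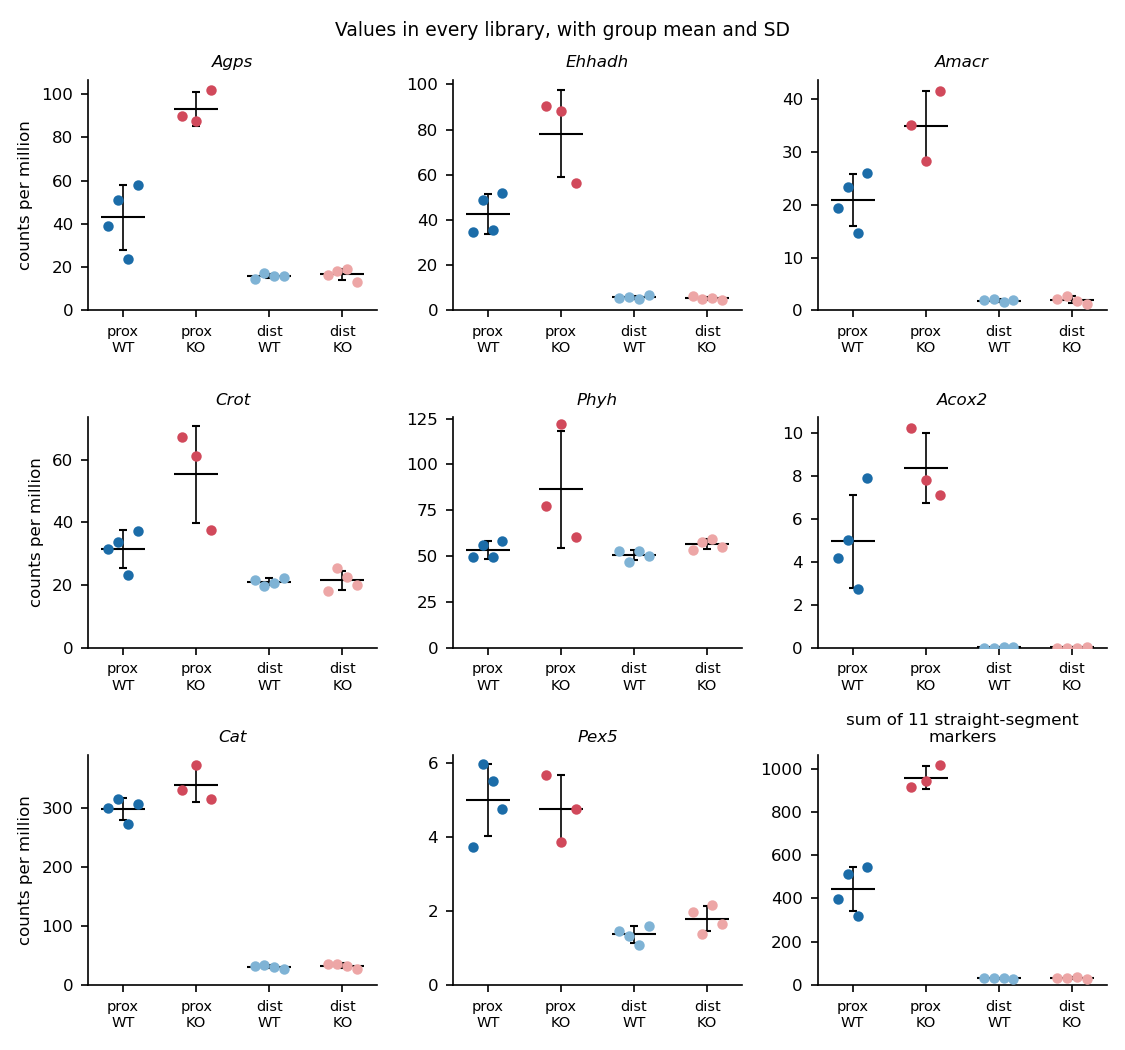
CPM in every library for 8 genes and for the sum of 11 straight-segment markers; each point is 1 library, black lines give the group mean and SD (n = 4, 3, 4 and 4). The 3 proximal KO libraries of Agps, at 87.4 to 102 CPM, and of the marker sum, at 913 to 1015 CPM, lie above all 4 proximal WT libraries.

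Whether these genes were called differed between fits. In 1 fit of all 15 libraries, 4 genes were called higher: Agps (adjusted p = 0.00314), Ehhadh (adjusted p = 0.0116), Crot (adjusted p = 0.0374) and Amacr (adjusted p = 0.0475). In the authors' deposited table for proximal tubule, 3 genes passed an adjusted p under 0.05, where 0.922% of all genes with an adjusted p did: Agps (adjusted p = 0.00253), Ehhadh (adjusted p = 0.0133) and Crot (adjusted p = 0.0472). In the authors' deposited table Amacr had an adjusted p of 0.0885 and Phyh of 0.13. Without the 2 libraries of the other number series, 0 genes were called, with a log2 difference of 1.28 for Agps (adjusted p = 0.0967), 1.18 for Ehhadh (adjusted p = 0.0524) and 1.12 for Crot (adjusted p = 0.0738).

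Catalase, the most abundant of the genes, was close in the 2 genotypes by value. It read 300, 316, 273 and 307 CPM in WT and 331, 374 and 316 CPM in KO (0.17, 95% interval -0.12 to 0.47, adjusted p = 0.826). Abcd3 read 58.3, 62.8, 56.6 and 57.9 CPM in WT and 81.4, 70.3 and 82.6 CPM in KO, groups that did not overlap (0.39, 95% interval 0.09 to 0.70, adjusted p = 0.522). The oxidases Dao (-0.06), Pipox (0.04) and Hao2 (0.24) had overlapping groups. So did the thiolases Acaa1a (-0.37) and Acaa1b (0.03), for which KO replicate 5 was the lowest of the 7 libraries at 6.01 and 3.9 CPM. Pex5 read 3.74 to 5.99 CPM in WT and 5.68, 3.88 and 4.76 CPM in KO (-0.08, adjusted p = 0.957). Pex7 read 7.93 to 9.92 CPM in WT and 10.7, 6.83 and 10.3 CPM in KO (-0.03, adjusted p = 0.984). The 13 peroxins had log2 differences of -1.08, for the sparsely counted Pex11g, to 0.38, with a median of -0.02.

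Markers of the straight proximal segment moved with genotype in the same libraries. The 11 markers listed for it summed to 319 to 544 CPM in WT and 913 to 1015 CPM in KO, without overlap. All 10 that could be tested were higher by value, and Atp11a (log2 difference 1.62, adjusted p = 0.027) and Acy3 (1.12, adjusted p = 0.0381) passed the test, calls that were not recomputed under the alternatives. Acy3 alone averaged 231 CPM in WT and 506 CPM in KO, a large part of the sum. Only 5 of the 10 had every KO library above every WT library (4.44% of all genes did). Slc7a13 and Slc5a8 overlapped, at 47.3 and 47.6 CPM in WT replicate 6 and 34.3 and 42.5 CPM in KO replicate 7. The 8 early proximal markers summed to 2462 to 2960 CPM in WT and 2097 to 2530 CPM in KO, and all 8 were lower by value with 0 called. In the longer lists from which these markers were taken, 14 of 15 tested straight-segment genes were higher by value (lowest -0.27). Of 14 early proximal genes 11 were lower and 3 higher (highest 0.65), with 7 lower and 2 higher at an unadjusted p under 0.05. Within WT, the libraries ordered by the straight-segment sum (replicates 3, 1, 2 and 6, at 319, 399, 511 and 544 CPM) had Agps at 23.7, 39.1, 51.1 and 57.8 CPM. Crot, Amacr and Acox2 followed the same order, as did 8 of the 42 genes in all, against 4.89% of all genes tested. The rest of the 8 were the peroxins Pex2, Pex6, Pex16 and Pex26. Between KO and WT, Pex2 (0.37) and Pex26 (0.38) were higher by value, and Pex6 (-0.19) and Pex16 (-0.25) lower. Ehhadh and Phyh, also among the 6 genes with the smallest p, left the order of the WT libraries only between replicates 3 and 1. In replicates 3, 1, 2 and 6 Ehhadh read 35.7, 34.6, 48.7 and 51.9 CPM. Phyh read 49.4, 49.3, 56.3 and 58.5 CPM there. The 5 endothelial markers summed to 8.99 to 19.4 CPM in WT and 16.6 to 29.2 CPM in KO. All 5 were higher in KO by value, 4 of them at an unadjusted p under 0.05 and 0 called. In the longer endothelial list all 12 genes were higher by value. The part of the segment markers and of the endothelial markers in the genotype differences was not tested. No marker of the podocyte list exceeded a summed 0.167 CPM, and the distal convoluted markers summed to 0.992 to 2.43 CPM in WT and 0.223 to 0.522 CPM in KO.

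In distal tubule, 0 of 39 tested genes passed the test between KO and WT, where 0% of all 12968 genes tested did. The median log2 difference was 0.01, against -0.01 over all genes, and its sign changed between alternatives. At an unadjusted p under 0.05, 3 of the 39 genes differed (7.13% of all genes did). Pex16, which starts peroxisome membranes, read 3.27, 2.17, 1.68 and 1.18 CPM in WT and 0.892, 1.13, 0.622 and 1.36 CPM in KO (-0.93, adjusted p = 0.67), with overlapping groups. Pex16 shares exon sequence with Large2 on the opposite strand (1.92 CPM in WT distal tubule), and the strand setting is not given. Pex2, a ubiquitin ligase of receptor export, read 3.38, 4, 3.12 and 3.02 CPM in WT and 4.12, 5.14, 4.1 and 4.91 CPM in KO (0.43, adjusted p = 0.687), with every KO library above the WT ones. That held for 3 of the 39 genes, and for 261 of all 12968. Acot4, at its low distal level, read 0.414, 0.229, 0.594 and 0.899 CPM in WT and 0.0787, 0.436, 0.448 and 0.0231 CPM in KO (-1.71, adjusted p = 0.687). The groups of Acot4 overlapped. Hao2 read 0.379, 0.526, 0.181 and 0.343 CPM in WT and 0.499, 0.552, 0.87 and 0.853 CPM in KO (0.99, adjusted p = 0.687). Acot8 read 0.482, 0.663, 0.723 and 0.878 CPM in WT and 0.394, 0.61, 0.622 and 0.161 CPM in KO (-0.83, adjusted p = 0.72). It likewise shares exon sequence with Snx21 on the opposite strand (0.877 CPM in WT distal tubule). Decr2, a dienoyl-CoA reductase, read 4.62, 4.89, 7.17 and 3.87 CPM in WT and 4.41, 4.91, 4 and 2.7 CPM in KO (-0.37, adjusted p = 0.749). Without KO replicate 8 the log2 difference was -0.91 for Acot4, -0.38 for Acot8 and -0.18 for Decr2, and without WT replicate 3 that of Decr2 was -0.19. Agps and Crot, among the genes with the smallest p in proximal tubule, were close by value in distal tubule. Agps was 15.9 ± 1.02 CPM in WT and 16.7 ± 2.59 CPM in KO (0.05, 95% interval -0.26 to 0.36), and Crot was 21 ± 1.1 and 21.5 ± 3.18 CPM (0.02, 95% interval -0.27 to 0.31; SD, n = 4 each). The 4 thick limb markers summed to 161 to 339 CPM in WT and 259 to 404 CPM in KO, and the endothelial markers to 47.9 to 67.9 and 45.3 to 47.5 CPM. All 4 thick limb markers were higher in KO by value, 3 of them at an unadjusted p under 0.05. All 5 endothelial markers were lower, 3 of them at that p, and 0 of either kind were called. The 5 collecting duct markers summed to 106 to 137 CPM in WT and 66.7 to 132 CPM in KO, and all 5 were lower by value, 4 of them at an unadjusted p under 0.05 and 0 called. The part of these markers was not tested. In the authors' deposited table for distal tubule, 0 of the 26 genes with an adjusted p passed 0.05, where 0.0418% of all genes did.

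**Figure D4:**
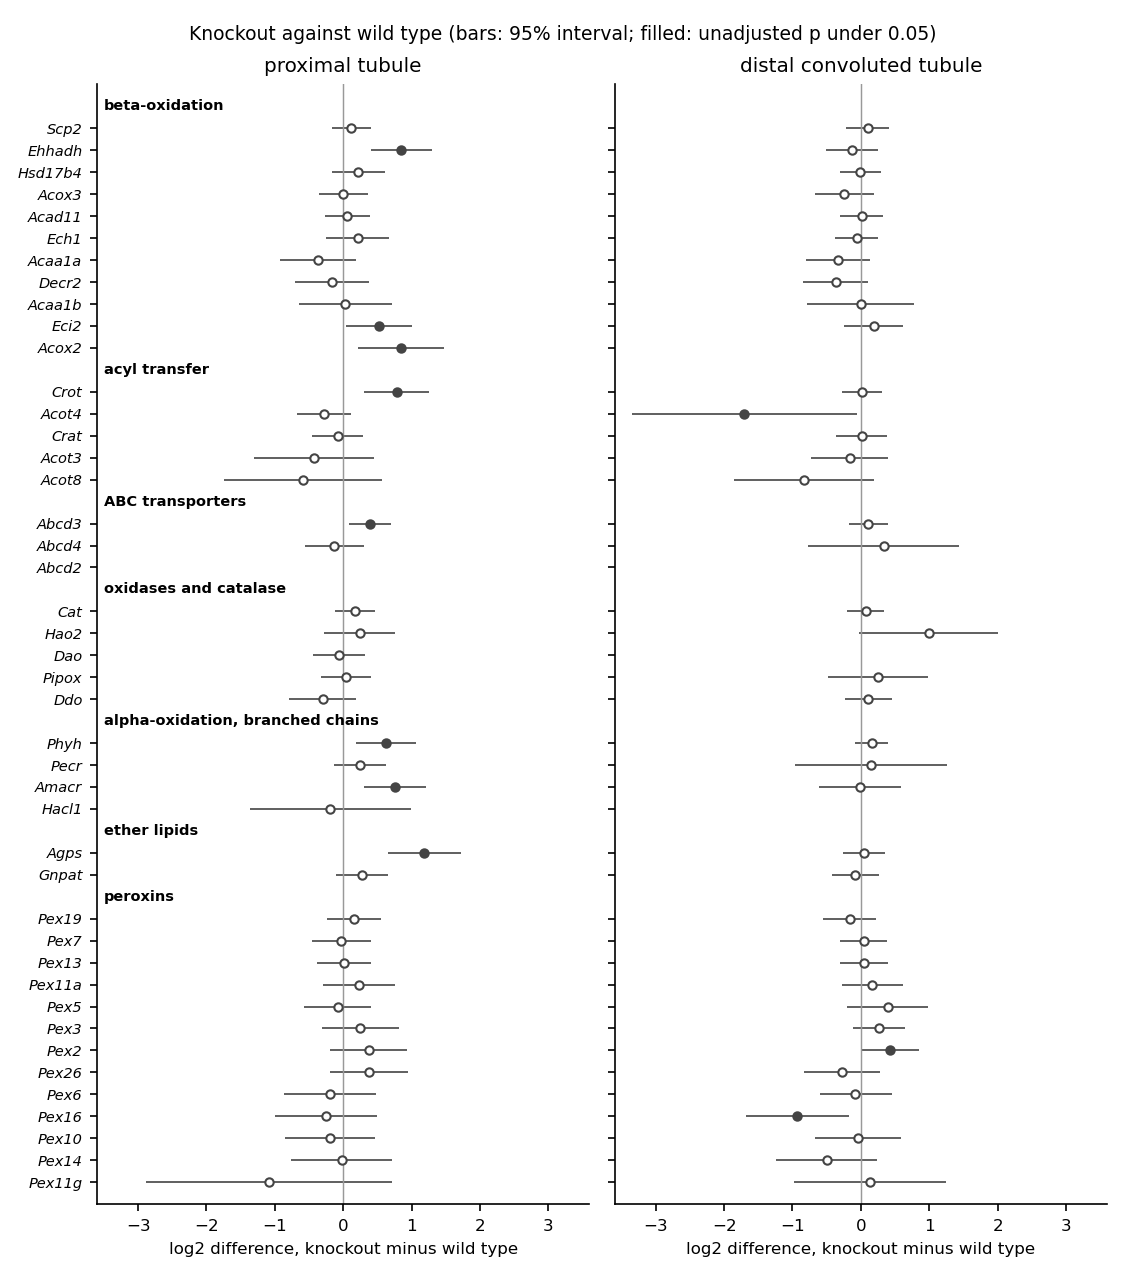
Log2 difference between KO and WT for the same genes in proximal (left) and distal tubule (right), with 95% intervals; filled points have an unadjusted p under 0.05. The 8 filled points on the left are all to the right of 0 and belong to enzymes and a transporter, and none passed the adjusted threshold.

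The difference between the segments' genotype effects was tested as an interaction over all 15 libraries. It called 0 of 42 genes, where 0% of all 15279 genes tested were called, and 4 genes had an unadjusted p under 0.05, all higher (3.16% of all genes were). Agps had an interaction of 1.15 (95% interval 0.53 to 1.77, adjusted p = 0.502), Ehhadh of 0.99 (adjusted p = 0.632) and Crot of 0.77 (adjusted p = 0.695). A genotype effect that differed between proximal and distal tubule was therefore not shown for any of these genes.

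Related genes outside the set were read from lists of the same pathway. Of 45 other genes of peroxisomal proteins, 39 were tested between segments in WT, where 25 were higher and 6 lower in proximal tubule (23.6% and 25.1% of all genes tested). Between KO and WT in proximal tubule 0 of 40 were called (0.166% of all genes). The smallest p there belonged to Slc27a2, which activates very long fatty acids (192 ± 48.3 CPM in WT, n = 4, and 358 ± 64 CPM in KO, n = 3; log2 difference 0.91, adjusted p = 0.131), and to the acetyl-CoA thioesterase Acot12 (0.95, adjusted p = 0.135). Of 18 genes of mitochondrial beta-oxidation, 9 were higher and 4 lower in WT proximal tubule, with a median log2 difference of 0.33 (23.6% and 25.1% of all genes were higher and lower), and 0 were called between KO and WT there; Acadm (0.61, adjusted p = 0.242) and Acadl (0.59, adjusted p = 0.454), dehydrogenases of medium and long chains, had the smallest p. Of 26 PPAR receptors, partners and target genes, 21 were tested in proximal tubule and 2 were higher in KO (0.166% of all genes were called, in either direction). Lpl, a lipase that frees fatty acids, read 17, 34.6, 13.2 and 18.2 CPM in WT and 68.3, 103 and 54.6 CPM in KO (1.89, adjusted p = 0.027). Cd36, a fatty acid uptake protein, read 5.29, 18.7, 5.53 and 28.9 CPM in WT and 65.6, 94.9 and 50.7 CPM in KO (2.60, adjusted p = 0.0476). The KO libraries lay above the WT libraries for both, and these 2 calls were not recomputed under the alternatives. In distal tubule Lpl was also higher in KO by value, without overlap but not called (0.53, adjusted p = 0.662). Cd36 was close by value there (0.00, adjusted p = 0.999). Ppara, the receptor of fatty acids that drives many peroxisomal genes in liver, was 10.2 ± 2.49 CPM in WT and 10.7 ± 0.35 CPM in KO proximal tubule (0.09, adjusted p = 0.945). Rxra, of the same list, was lower by value, at 18.1 ± 2.74 CPM in WT and 13 ± 3.26 CPM in KO (-0.51, adjusted p = 0.593). At an unadjusted p under 0.05, 4 of the 21 were higher and 2 lower in KO (557 and 419 of all 13229 genes were).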

How the data were processed

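Tubules of both kinds were dissected and sequenced as 15 RNA-seq libraries. CASAVA 1.8, STAR 2.5, DESeq2 1.24.0 and GRCm38 are named in the submitters' processing notes. The sources used here do not state the counting program, its annotation or whether it used strand. The authors deposited whole-number gene counts with no normalization. The layout of that table kept its unit from being recorded as counts, so limma took the place of a count model. The authors also deposited log2 fold changes and p-values per segment, used only where named. All 15 columns were matched to samples, leaving 0 unmatched.

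Symbols, positions and exon lengths came from GENCODE M21 (GRCm38). A gene was tested if it reached about 10 counts in at least the number of libraries in the smaller group, and 15 in all. Library sizes were scaled by trimmed means of M values, with 30% trimmed by log ratio and 5% by intensity. voom weights (prior count 0.5) and limma 3.58.1 in R 4.3.3 were fitted on the groups compared, with Benjamini-Hochberg adjustment over all genes tested. Of the 43 genes, 42 passed this filter in each comparison except KO against WT in distal tubule, where 39 did (Abcd2, Acox2, Dao and Hacl1 did not). Exact intervals of ratios cover counting error only, as no molecular identifiers are described. The steps were tested on simulated data. The genes, lists and tests were chosen with earlier results of these data known.

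Values in every library are given for the 6 genes with the smallest p per genotype comparison, the 8 with the largest called difference between WT segments, those called lower there, and 7 well known genes. Of the other lists, the 2 genes with the smallest p were named. Of the 43 genes, 19 share exon sequence with a gene on the opposite strand. Replicates correlated at r = 0.913 to 0.943, so no 2 held identical values. Alternatives were median-of-ratios scale factors, scaling on protein-coding genes, no filter, a strict filter, sample quality weights, limma-trend, a joint fit of the 15 libraries, a looser adjusted p of 0.1, leaving out each library, leaving out the 2 libraries of the other number series, and a replicate block. Protein sequences were not used here. A marker gene of the lists is not reported here.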

Additional observations from a re-analysis of the deposited data

How the results depend on the processing

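The count of 0 genes called between KO and WT in proximal tubule became 1 with no filter on low counts, 4 in 1 fit of all 15 libraries and 1 at an adjusted p under 0.1; the cause was not tested. It stayed at 0 under 13 alternatives, leave-one-out included (0 to 0), with a median log2 difference of 0.02 to 0.17. Agps ranged from 0.91 to 1.35 (adjusted p 0.00314 to 0.338), Ehhadh from 0.71 to 1.18 (0.0116 to 0.633) and Crot from 0.59 to 1.12 (0.0374 to 0.733). In distal tubule 0 genes were called throughout, and the median ran from -0.02 to 0.04; the interaction called 0 throughout. Between segments in WT, 25 to 28 genes were called, 25 to 27 when 1 library was left out. In KO, 25 to 30 were called, apart from the replicate block, and 25 to 29 when 1 library was left out.

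Replicate numbers were not taken to pair the segments, and the labels do not say whether same-numbered libraries share a mouse. Deviations of same-numbered libraries correlated at r = 5.81e-07, -0.0224 and 0.0231 in WT and at -0.0704 and -0.124 in KO. Those of differently numbered libraries ran from -0.0418 to 0.0605 in WT and from -0.0343 to 0.127 in KO. Such small values cannot settle whether libraries were paired. With the replicate block on shared numbers, 25 genes were called between segments in WT, against 26, and 17 in KO, against 27, where fewer libraries entered; the 10 lost in KO were Hsd17b4, Acaa1a, Decr2, Eci2, Acot3, Abcd3, Pex5, Pex11a, Phyh and Gnpat, and in WT Eci2 was lost. No called gene changed direction under any alternative between segments. For 32 chosen results of single genes, which hold none of the segment comparison in KO and not Eci2, 545 values were computed under alternatives, of which 539 kept their direction and their side of the threshold, 6 passed the threshold only under the alternative, and 0 reversed. Protein-coding genes took only 8.02 to 19.7% of the counts, which limits the precision for sparsely counted genes such as Hacl1 and Pex11g.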

Other observations

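In the 22 genes whose values in every library were considered, 63 sets of 4 libraries were screened for a library far from the other 3 by Dixon's criterion, and 0 were found, where chance gives about 1 in 20. The proximal KO group, with 3 libraries, was not screened. Of the 26 PPAR receptors, partners and target genes, 20 were tested between segments in WT, and 12 were higher and 5 lower in proximal tubule (23.6% and 25.1% of all genes). Among them Hnf4a was 94.4 ± 10.2 CPM in proximal and 0.282 ± 0.234 CPM in distal tubule (log2 difference 8.62, adjusted p = 1.48e-09), Ppara was 10.2 ± 2.49 CPM in proximal tubule (3.13, adjusted p = 1.36e-06), and Rxra 18.1 ± 2.74 and 4.28 ± 0.499 CPM (2.06, adjusted p = 3.69e-08). Ppargc1a, a coactivator of mitochondrial genes, went the other way, at 38.9 ± 4.18 CPM in proximal and 68.9 ± 5.49 CPM in distal tubule (-0.84, adjusted p = 5.95e-06; SD, n = 4 each). These 4 genes were picked from their list after its values were seen. Hnf4a reached the counts needed for testing only through its proximal libraries.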
